A study of Mus musculus with 20 samples.

Results

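The fatty acid oxidation and ketogenesis genes of the mouse colon were examined, a set of 43 genes listed by symbol, of 32991 genes that had a value in each of 20 mice. The set held 3 regulators, 7 genes of uptake, binding and activation, 2 acyl-CoA thioesterases, 3 genes of the carnitine shuttle, 4 acyl-CoA dehydrogenases, 5 genes of the later β-oxidation steps, 4 isomerases and reductases, 3 peroxisomal enzymes, 3 electron transfer genes, 3 ketone body enzymes, 3 genes of lipid droplets and triglyceride synthesis and 3 genes of the fuel switch. All were male C57BL/6 mice, 5 per group, and RNA of the colon, as the tissue label gives it, was sequenced in 1 library per mouse. Control mice received water by gavage for 91 days, and PZH mice received Pien Tze Huang (PZH), a formula of Chinese medicine, at 250 mg/kg/d over the same time. AOM/DSS mice were given water by gavage together with 1 intraperitoneal injection of azoxymethane (AOM, a carcinogen) at 12.5 mg/kg and, from 7 days later, cycles of 2% dextran sodium sulfate (DSS, an irritant of the colon) in the drinking water for 5 days each, which models colitis-associated colorectal cancer. PZH + AOM/DSS mice were given both. How much tumour and how much flat mucosa each piece of colon held is not given in the sources used here.

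Fatty acids enter the cell, are joined to coenzyme A, cross into the mitochondrion as carnitine esters and are shortened there by repeated rounds of dehydrogenation, hydration, dehydrogenation and thiolysis. The electrons pass through the electron transfer flavoprotein to the respiratory chain, and the acetyl-CoA can enter the citric acid cycle or be exchanged with ketone bodies. Colonocytes at the mucosal surface are known for oxidising short-chain fatty acids, above all butyrate made by gut bacteria, as their main fuel, and nuclear receptors of the PPAR family switch on many genes of this pathway.

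Values are FPKM, the fragments of a transcript scaled to its length and to the fragments mapped in the library, summed over the annotated transcripts of a gene. This puts different genes on one scale. Assembled transcripts without a gene name entered no sum, so a gene with fragments in them may be listed too low. A ranking of genes by level carries that limit. In Control mice 18 of the 43 genes averaged 50 FPKM or more, 15 averaged from 10 to 50 and 10 averaged under 10. The highest mean levels were those of Etfb (115 ± 42.7 FPKM, SD, n = 5), Slc25a20 (111 ± 27.2), Oxct1 (107 ± 7.64), Etfa (101 ± 11.4) and Echs1 (99.97 ± 15.3), which serve electron transfer, carnitine exchange, ketone body use and β-oxidation. At the other end Fabp1, a fatty acid binding protein abundant in liver and small intestine, was listed at 0 in 15 of 20 mice and reached at most 1.10 FPKM. Acaa1b, a peroxisomal thiolase, lay between 0 and 2.53 FPKM, and because it has a near-identical copy, Acaa1a, its share of reads is uncertain. Values of single mice are given in the order of mouse number, which is 17, 37, 41, 48 and 50 for Control, 8, 14, 27, 46 and 53 for PZH, 23, 30, 33, 44 and 52 for AOM/DSS and 2, 13, 15, 35 and 36 for PZH + AOM/DSS.

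The regulators of this set include PPAR receptors, which are known to bind pairs of AGGTCA half-sites spaced by 1 base, so the sequence just before the start of the genes was searched for these letters on both strands. The windows ran from 250 bases before to 50 bases after the RefSeq start (GRCm38.p6), and 36 of the 43 genes had one. The half-site AGGTCA stood in the windows of 8 of these 36 genes (22.2%), Acadm, Acadvl, Cd36, Cpt1a, Echs1, Fabp1, Plin2 and Pparg, against 18.1% of all 27025 genes with a window. The paired form AGGNCANAGGNCA, which contains the half-site when an N before CA is T, stood in 1 of the 36, Fabp1, against 0.451% of all genes. Shown here, 5′ to 3′ on the strand of the gene and with the match in capitals, are the first 200 bases of the Acadm window and the surroundings of the match in Acadvl, Echs1 and Cd36, because these 4 genes fell in AOM/DSS mice as described further on, and in Fabp1, which held the paired form although the gene was close to 0 in these colons.
Acadm, chr3:153944694-153944893, minus strand: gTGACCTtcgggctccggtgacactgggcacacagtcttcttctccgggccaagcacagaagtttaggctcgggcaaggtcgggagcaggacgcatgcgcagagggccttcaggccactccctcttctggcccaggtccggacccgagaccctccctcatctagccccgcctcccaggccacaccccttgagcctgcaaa
Acadvl, chr11:70015483-70015542, minus strand: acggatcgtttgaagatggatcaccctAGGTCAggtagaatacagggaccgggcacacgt
Echs1, chr7:140116472-140116531, minus strand: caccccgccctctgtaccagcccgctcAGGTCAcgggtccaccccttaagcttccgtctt
Cd36, chr5:17836092-17836146, minus strand: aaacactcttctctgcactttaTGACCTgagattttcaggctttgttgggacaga
Fabp1, chr6:71199788-71199848, plus strand: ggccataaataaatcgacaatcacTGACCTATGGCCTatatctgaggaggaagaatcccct
In Acadm, Cd36 and Fabp1 the match is written as its reverse complement. Of the 14 genes with a window that fell in AOM/DSS mice, 4 held the half-site, while Cpt1a, Plin2 and Pparg held it and did not pass. A match describes letters and not binding.

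AOM/DSS mice were compared with Control mice to ask which of these genes differ in a colon exposed to AOM and DSS. Of the 41 genes tested (all but Fabp1 and Acaa1b, which were too low), 17 fell and 1 rose at an adjusted P under 0.05 (limma, Benjamini-Hochberg over all genes). Among all 15812 genes tested, 7.23% fell and 16.4% rose. The genes of fatty acid oxidation thus fell in a larger share and rose in a smaller share than genes at large. The members of the set were chosen with earlier results of these data known. That choice may have set its shares in part, here and in the comparisons that follow. The median log2 difference was -0.34 over the 41 genes and 0.09 over all genes, where differences are of the mean log2(FPKM + 1). The 17 were the nuclear receptor gene Ppara, the fatty acid transporter Cd36, the acyl-CoA synthetase Acsm3, the dehydrogenases Acadm, Acads and Acadvl, the later β-oxidation genes Hadha, Hadhb, Echs1 and Acaa2, the reductase Decr1, the electron transfer genes Etfa and Etfdh, the ketone body enzymes Bdh1, Oxct1 and Acat1, and Pck1. Every AOM/DSS mouse was below every Control mouse for 17 of the 41 genes, which are the same genes except that Acot2 takes the place of Acads, and 5.43% of all genes separated this way. Taking only the highest transcript of each gene in place of the sum, 11 of the 41 were lower and 1 higher, and Cd36, Acads, Acadvl, Hadha, Hadhb and Etfdh lost their calls. All genes lost calls as well in that setting, to 842 lower and 1914 higher from 1143 and 2596. No gene of the set lay above all Control mice in all AOM/DSS mice, as 13% of all genes did. Scaling the mice by median of ratios moved the split of all genes from 1143 lower and 2596 higher to 1590 lower and 1937 higher, and left 18 lower and 1 higher in the set.

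**Figure D1:**
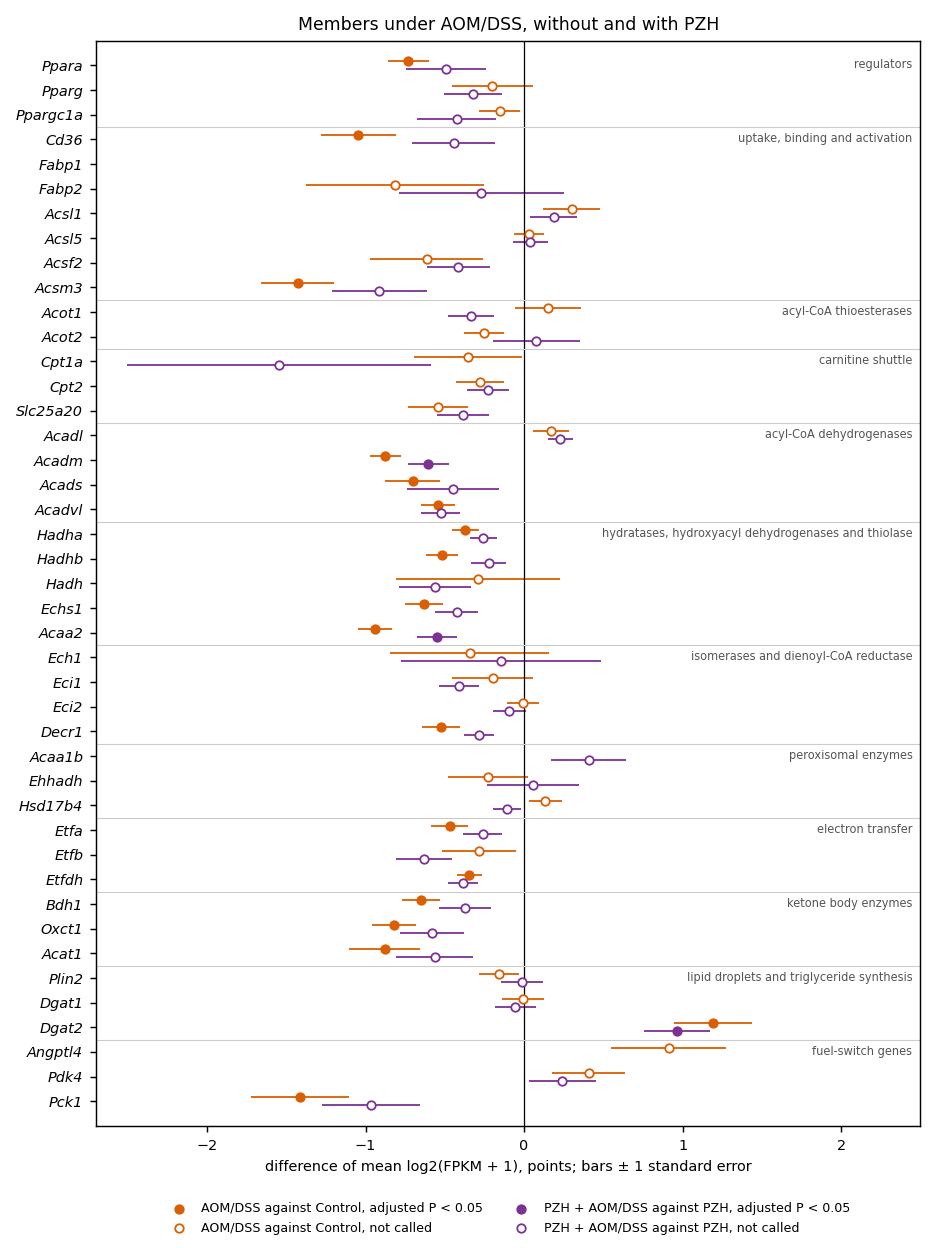
Difference of mean log2(FPKM + 1) for each member (points) with ± 1 standard error (bars), AOM/DSS against Control in orange and PZH + AOM/DSS against PZH in purple, 5 mice per group; filled points passed an adjusted P under 0.05. In orange, 17 filled points lie below 0 and 1, Dgat2, above, and in purple all of these 17 genes also lie below 0.

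Ppara, the receptor that drives fatty acid oxidation genes, was the one regulator that fell. It stood at 2.02, 2.89, 3.36, 3.08 and 2.49 FPKM in Control mice and 2.44, 3.56, 1.5, 3.16 and 2.93 in PZH mice. Values in AOM/DSS mice were 1.12, 1.58, 1.36, 1.17 and 1.06, and those in the PZH + AOM/DSS mice were 3.08, 2.22, 0.933, 0.785 and 1.56. All AOM/DSS mice were below all Control mice, while the PZH + AOM/DSS mice spread over the range of both groups, and the log2 difference of AOM/DSS from Control was -0.73 ± 0.13 (SE), adjusted P = 0.0028. Pparg, the family member best known from fat cells and also abundant in colon epithelium, stood at 6.38, 14.2, 16.1, 13 and 9.94 FPKM in Control mice and 17.5, 15.9, 18.5, 21.9 and 13.1 in PZH mice. AOM/DSS mice had values of 7.51, 13.1, 10.2, 6.7 and 13.1, and PZH + AOM/DSS mice of 15.5, 16.9, 15.9, 11.4 and 9.37. The AOM/DSS mice lay inside the range of the Control mice (log2 difference -0.20 ± 0.26 (SE), adjusted P = 0.62). Ppargc1a, a coactivator of mitochondrial genes, was at 6.63, 6.08, 6.83, 7.27 and 7.09 FPKM in Control mice and 14.1, 7.42, 7.97, 6.79 and 6.61 in PZH mice. With AOM/DSS the values were 6.41, 7.35, 4.74, 6.48 and 5.26, and with PZH + AOM/DSS they were 6.21, 5.56, 3.55, 5.7 and 9.81. These ranges overlapped as well (-0.15 ± 0.13 (SE), adjusted P = 0.43), with PZH mouse 8 well above the other 4 PZH mice.

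Among the genes of uptake and activation, Acsm3 and Cd36 fell in AOM/DSS mice, and the other 4 tested did not pass. Acsm3 (chr7:119760923-119787513 in GRCm38), a mitochondrial synthetase that activates butyrate and medium-chain fatty acids, had a fall close in size to that of Pck1, described further on, and these were the largest of the set. It was at 72.3, 108, 106, 116 and 92.4 FPKM in Control mice and 106, 112, 99.7, 103 and 97.6 in PZH mice. In AOM/DSS mice it was at 45, 45.2, 45.1, 19.8 and 31.4, and in PZH + AOM/DSS mice at 73.6, 86.1, 38.9, 25.2 and 76.6. The highest AOM/DSS mouse was below the lowest Control mouse, and the log2 difference was -1.43 ± 0.23 (SE), adjusted P = 0.0016, against -1.41 for Pck1, an order that turned with a pseudocount of 0.1 (-1.45 against -1.46). Cd36, a membrane carrier of long-chain fatty acids, was at 13, 5.54, 5.93, 7.3 and 10.2 FPKM in Control mice and 4.66, 5.83, 5.49, 4.79 and 6.0 in PZH mice. Values in AOM/DSS mice were 4.87, 4.0, 3.33, 2.5 and 2.57, and those in the PZH + AOM/DSS mice were 5.14, 4.61, 2.73, 1.43 and 5.98. Its groups did not overlap either (-1.05 ± 0.24 (SE), adjusted P = 0.0098), although taking only the highest transcript of the gene in place of the sum gave -1.19 with an adjusted P of 0.080. Acsf2, a further synthetase, was at 8.05, 27.7, 45.5, 31.1 and 20.5 FPKM in Control mice and 22, 30.3, 24, 22.6 and 39.3 in PZH mice. AOM/DSS mice had values of 16.6, 13.9, 17.8, 12.2 and 14.1, and PZH + AOM/DSS mice of 20.5, 25.8, 18.1, 13.7 and 24.3. Control mouse 17 was below all AOM/DSS mice and the other 4 Control mice were above them. The log2 difference was -0.62 ± 0.36 (SE), adjusted P = 0.25 with all mice and -0.97 ± 0.21 (SE), adjusted P = 0.011 without Control mouse 17. That mouse was chosen by its value, as were the mice left out for Cpt1a, Hadh, Ech1, Eci1 and Ehhadh further on. A P value that passes only without such a mouse is set in part by that choice and is not counted as a call. The long-chain synthetases Acsl1 (0.30, adjusted P = 0.27) and Acsl5 (0.03, adjusted P = 0.83) and the intestinal binding protein Fabp2 (-0.81, adjusted P = 0.33) did not pass. Fabp2 varied over 9.42 to 54.2 FPKM among Control mice alone.

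The carnitine shuttle had no gene that passed with all mice. Cpt1a (chr19:3322334-3385733), the outer-membrane enzyme that commits long-chain fatty acids to oxidation, was at 67.6, 18.3, 61.1, 72.6 and 59.8 FPKM in Control mice and 57.6, 64.2, 56.3, 58.7 and 56.8 in PZH mice. With AOM/DSS the values were 33.5, 52.3, 48.3, 30.7 and 36.9, and with PZH + AOM/DSS they were 0, 67.8, 27.5, 39.9 and 43.5. In 4 of 5 Control mice Cpt1a was above every AOM/DSS mouse, Control mouse 37 was below all of them, and PZH + AOM/DSS mouse 2 was listed at 0. The log2 difference was -0.35 ± 0.34 (SE), adjusted P = 0.50 with all mice and -0.71 ± 0.16 (SE), adjusted P = 0.014 without Control mouse 37. Control mouse 37 was chosen by its value, with the limit given for Acsf2. The difference of PZH + AOM/DSS from PZH was -1.54 ± 0.96 (SE), adjusted P = 0.39 with mouse 2, listed at 0, and -0.46 ± 0.21 (SE), adjusted P = 0.26 without it. Assembled transcripts without a gene name, which held 12.1% to 14.8% of the summed FPKM of each mouse, were not part of the sums. Slc25a20, the carrier that exchanges acylcarnitine for carnitine across the inner membrane, was at 149.7, 99.3, 82.8, 127 and 94.9 FPKM in Control mice and 121, 91.9, 88.8, 80.2 and 91.7 in PZH mice. In AOM/DSS mice it was at 71.3, 97.5, 84.3, 53.7 and 70.5, and in PZH + AOM/DSS mice at 63.4, 89.8, 52.5, 74 and 85.4. The AOM/DSS and Control ranges overlapped and the difference just missed the threshold (-0.54 ± 0.19 (SE), adjusted P = 0.063). Cpt2, which returns the acyl group to coenzyme A inside the mitochondrion, had a log2 difference of -0.28 ± 0.15 (SE), adjusted P = 0.22. The thioesterases, which split acyl-CoA again, did not pass either. Acot2, the mitochondrial form, was at 2.72, 2.75, 4.12, 2.74 and 3.04 FPKM in Control mice and 2.62, 2.83, 3.65, 0.42 and 2.54 in PZH mice. Values in AOM/DSS mice were 2.08, 2.53, 2.25, 2.57 and 2.58, and those in the PZH + AOM/DSS mice were 2.25, 2.32, 2.61, 2.21 and 2.37. Its AOM/DSS mice were all below its Control mice, by a small step (-0.25 ± 0.13 (SE), adjusted P = 0.18). Acot1, the cytosolic form, was at 3.74, 6.5, 3.08, 5.0 and 2.54 FPKM in Control mice and 5.38, 3.72, 4.97, 4.25 and 4.15 in PZH mice. AOM/DSS mice had values of 5.15, 3.65, 4.44, 4.08 and 5.54, and PZH + AOM/DSS mice of 3.06, 2.88, 3.0, 4.7 and 3.21. Its ranges overlapped (0.15 ± 0.21 (SE), adjusted P = 0.65). Acot1 and Acot2 are near-identical neighbours on chromosome 12, 15616 bases apart, so the split of reads between them is uncertain.

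The acyl-CoA dehydrogenases carry out the first step of each round and differ in the chain length they take, and 3 of the 4 fell. Acadm (chr3:153922357-153944632), the medium-chain enzyme, was at 73.3, 72.9, 72.4, 71.3 and 88 FPKM in Control mice and 70.2, 67.2, 70.2, 73.5 and 60.5 in PZH mice. With AOM/DSS the values were 37, 47.1, 41.9, 38.9 and 39, and with PZH + AOM/DSS they were 46, 57.1, 34.1, 40.8 and 47.7. Control and PZH mice together lay above all AOM/DSS and all PZH + AOM/DSS mice, and the fall in AOM/DSS mice was -0.87 ± 0.10 (SE), adjusted P = 0.00014, the smallest adjusted P of the set. The very-long-chain enzyme Acadvl went from 64.1 ± 7.13 FPKM in Control to 43.7 ± 4.83 in AOM/DSS mice (SD, n = 5), a log2 difference of -0.54 ± 0.11 (SE), adjusted P = 0.0052, which was -0.65, adjusted P = 0.43 for the highest transcript alone. Its short-chain counterpart Acads went from 54.8 ± 13.2 to 32.8 ± 5.08 FPKM (-0.70 ± 0.17 (SE), adjusted P = 0.014, and -0.83, adjusted P = 0.070 for the highest transcript alone), with 1 AOM/DSS mouse at 40 FPKM above the lowest Control mouse at 39.7. Acadl, the long-chain enzyme, was the exception, at 90.3 ± 3.85 FPKM in Control and 103 ± 17.4 in AOM/DSS mice (0.17 ± 0.11 (SE), adjusted P = 0.31).

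Of the 5 genes of the later steps of β-oxidation, 4 fell. Acaa2, the mitochondrial thiolase that releases acetyl-CoA, was at 75.6, 79.8, 66.1, 65.7 and 76.9 FPKM in Control mice and 58.9, 58, 57.3, 66.3 and 58 in PZH mice. In AOM/DSS mice it was at 45.6, 34.1, 36.5, 33.2 and 38.8, and in PZH + AOM/DSS mice at 44.4, 52.4, 37.6, 31.9 and 38.8. The highest AOM/DSS mouse (45.6 FPKM) was below the lowest Control mouse (65.7), with a log2 difference of -0.94 ± 0.11 (SE), adjusted P = 0.00019. Hadhb, the thiolase subunit of the mitochondrial trifunctional protein, was at 63.3, 66.3, 71.1, 67.6 and 57 FPKM in Control mice and 55.8, 59, 68.1, 64.5 and 54.7 in PZH mice. Values in AOM/DSS mice were 50.9, 41.2, 43.9, 39.9 and 50.5, and those in the PZH + AOM/DSS mice were 55.3, 56.9, 53.1, 40.9 and 52.9. The AOM/DSS mice were all below the Control mice (-0.52 ± 0.10 (SE), adjusted P = 0.0046), but the highest single transcript of Hadhb gave a difference of 0.36 with an adjusted P of 0.67, so the fall of Hadhb holds for the sum of its transcripts. Hadha, the other subunit, starts 85 bases from Hadhb on chromosome 5 in the opposite direction, and went from 90.2 ± 7.27 to 69.5 ± 4.63 FPKM (-0.37 ± 0.09 (SE), adjusted P = 0.011, and -0.45, adjusted P = 0.065 for its highest transcript). Echs1, the short-chain enoyl-CoA hydratase, went from 99.97 ± 15.3 to 63.8 ± 5.56 FPKM (-0.63 ± 0.12 (SE), adjusted P = 0.0035). Hadh, the short-chain hydroxyacyl-CoA dehydrogenase, was at 15.9, 132, 92.2, 115 and 98.7 FPKM in Control and 69.6, 48.6, 84.5, 35.1 and 80.5 in AOM/DSS mice. Control mouse 17 stood far below the other 4, and the difference was -0.29 ± 0.52 (SE), adjusted P = 0.73 with it and -0.83 ± 0.25 (SE), adjusted P = 0.045 without it. The mouse was chosen by its value, so the second P value is set in part by that choice.

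**Figure D2:**
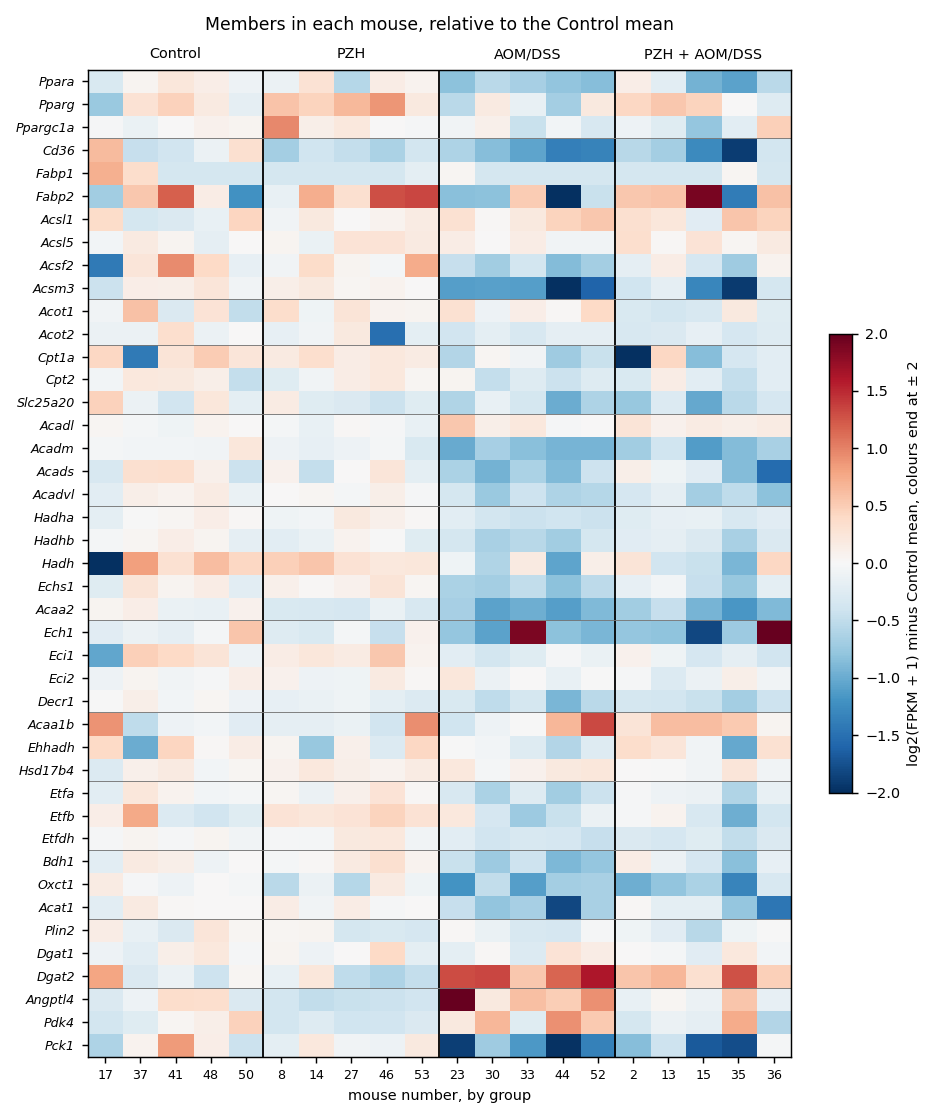
Each of the 43 genes (rows, grouped by role) in each of the 20 mice (columns, by group and mouse number) as log2(FPKM + 1) minus the mean of the 5 Control mice; blue is lower and red higher, and colours end at ± 2. The blue rows under AOM/DSS are shared by PZH + AOM/DSS mouse 35, while single dark cells such as Cpt1a in PZH + AOM/DSS mouse 2 and Hadh in Control mouse 17 stand alone.

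Unsaturated fatty acids need isomerases and a reductase, of which 1 of 4 fell. Decr1, the dienoyl-CoA reductase, was at 24.6, 26.9, 23.7, 25.4 and 22.9 FPKM in Control mice and 22, 22.3, 23.3, 21.3 and 20.2 in PZH mice. AOM/DSS mice had values of 19.8, 17, 19, 12.7 and 16.6, and PZH + AOM/DSS mice of 19.1, 18.9, 17.8, 15 and 18.2. Its AOM/DSS mice lay below its Control mice (-0.52 ± 0.12 (SE), adjusted P = 0.011). The isomerases Eci2 (-0.01, adjusted P = 0.97), Eci1 (-0.20, adjusted P = 0.63) and Ech1 (-0.34, adjusted P = 0.67) did not pass with all mice. For Ech1, 4 AOM/DSS mice were between 8.18 and 10.3 FPKM, below the 15.6 to 27.4 FPKM of Control mice, and AOM/DSS mouse 33 was at 70, and without that mouse the difference was -0.90 ± 0.17 (SE), adjusted P = 0.0065. For Eci1, Control mouse 17 was at 12.1 FPKM against 24.3 to 36.8 in the other 4, and without it the difference was -0.46 ± 0.13 (SE), adjusted P = 0.037. The peroxisomal enzymes did not pass. Ehhadh, the bifunctional enzyme of peroxisomal β-oxidation, was at 15.8, 5.4, 16.1, 11.9 and 13.1 FPKM in Control mice and 12.2, 6.51, 12.7, 9.49 and 16 in PZH mice. With AOM/DSS the values were 11.7, 11.3, 9.68, 7.49 and 9.67, and with PZH + AOM/DSS they were 15.2, 14.1, 11.2, 5.25 and 14.8. Its ranges overlapped (-0.23 ± 0.25 (SE), adjusted P = 0.56), with Control mouse 37 below every AOM/DSS mouse, and without that mouse the difference was -0.48 ± 0.15 (SE), adjusted P = 0.046. For Ech1, Eci1 and Ehhadh the mouse left out was again chosen by its value, so the P values without it are set in part by that choice. Hsd17b4, the second bifunctional enzyme, had a difference of 0.13 ± 0.10 (SE), adjusted P = 0.39.

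**Figure D3:**
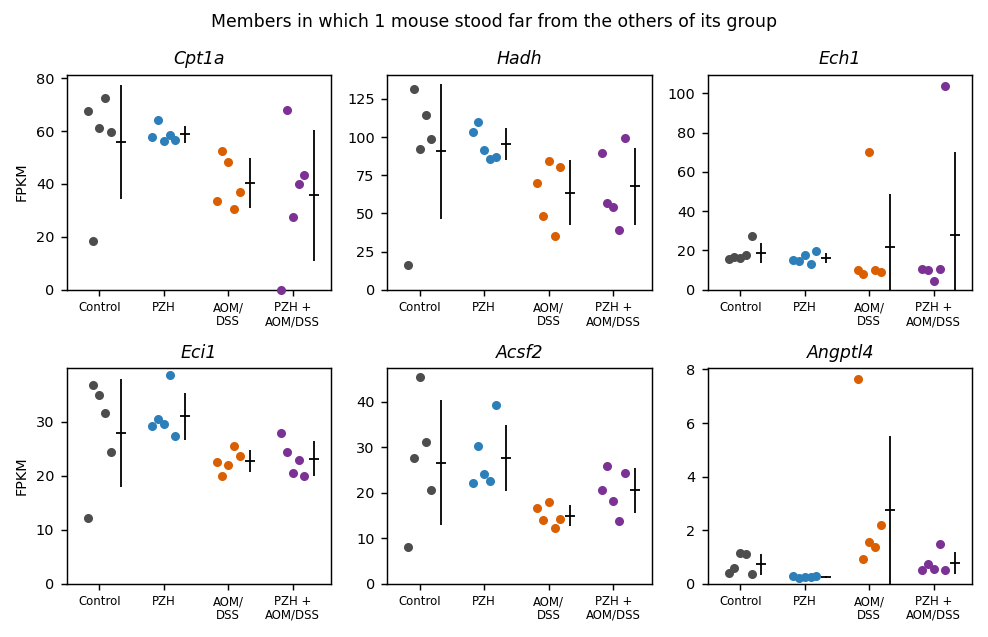
FPKM of 6 genes in each mouse (points, in order of mouse number within a group), with mean and SD beside them (bars are cut at 0). Single mice stood apart in some of these groups, as Control mouse 37 did for Cpt1a at 18.3 FPKM and AOM/DSS mouse 33 for Ech1 at 70 FPKM.

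Electrons from the dehydrogenases reach the respiratory chain through the electron transfer flavoprotein, and 2 of its 3 genes fell. Etfa, one flavoprotein subunit, was at 87.4, 118, 106, 97.6 and 98.2 FPKM in Control mice and 104, 92.7, 108, 122 and 103 in PZH mice. In AOM/DSS mice it was at 81, 64.5, 83.9, 61.9 and 74.4, and in PZH + AOM/DSS mice at 99.2, 93.8, 93, 66.5 and 91.2. Its AOM/DSS and Control mice did not overlap (-0.47 ± 0.12 (SE), adjusted P = 0.015). Etfdh, the oxidoreductase that hands the electrons to ubiquinone, had a small spread and a small fall, from 41.2 ± 1.64 to 32.3 ± 2.13 FPKM (-0.34 ± 0.08 (SE), adjusted P = 0.010), with -0.22, adjusted P = 0.70 for its highest transcript alone. Etfb, the second subunit, spread over 83.7 to 187 FPKM in Control mice and did not pass (-0.28 ± 0.24 (SE), adjusted P = 0.43).

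All 3 ketone body enzymes fell. Oxct1 starts the use of ketone bodies, while Bdh1 and Acat1 work in either direction, so the label ketogenesis covers enzymes of ketone body use as much as of synthesis. Bdh1 (chr16:31422280-31458901), which interconverts acetoacetate and β-hydroxybutyrate, was at 48.6, 63.8, 61, 52.5 and 56.6 FPKM in Control mice and 54.5, 56.9, 64.2, 70.8 and 59.2 in PZH mice. Values in AOM/DSS mice were 40.9, 33.8, 41.8, 29.8 and 32.4, and those in the PZH + AOM/DSS mice were 62.4, 51.8, 44.5, 31 and 50. No AOM/DSS mouse reached the lowest Control mouse (-0.65 ± 0.12 (SE), adjusted P = 0.0033). Acat1, the acetoacetyl-CoA thiolase, was at 47.9, 63.3, 56.7, 56.1 and 56.4 FPKM in Control mice and 61.9, 53.4, 62.3, 55.2 and 56.1 in PZH mice. AOM/DSS mice had values of 40.1, 31.9, 35, 15 and 35.2, and PZH + AOM/DSS mice of 56.5, 48.8, 48.6, 32.1 and 19.9. AOM/DSS mouse 44 was the lowest, and AOM/DSS and Control mice did not overlap (-0.88 ± 0.23 (SE), adjusted P = 0.017). Oxct1 went from 107 ± 7.64 to 61.3 ± 12.7 FPKM (-0.82 ± 0.14 (SE), adjusted P = 0.0021).

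Triglyceride synthesis gave the one gene that rose. Dgat2, which adds the last acyl group to a triglyceride, was at 31, 14.1, 16, 12.9 and 18 FPKM in Control mice and 15.6, 20.7, 12, 11 and 12.3 in PZH mice. With AOM/DSS the values were 44.8, 45.6, 26, 40.5 and 55.6, and with PZH + AOM/DSS they were 26.2, 28.3, 22.2, 43.7 and 24.8. In AOM/DSS mice 4 of 5 were above every Control mouse, AOM/DSS mouse 33 at 26 FPKM was below Control mouse 17 at 31, and the log2 difference was 1.19 ± 0.25 (SE), adjusted P = 0.0064. Dgat1, the other enzyme of this step, had a difference of -0.0041 ± 0.13 (SE), adjusted P = 0.99, and the droplet coat gene Plin2 of -0.16 ± 0.13 (SE), adjusted P = 0.41. Of the fuel-switch genes, Pck1, the cytosolic enzyme that turns oxaloacetate to phosphoenolpyruvate, was at 29.6, 48.4, 83.8, 50.4 and 33.9 FPKM in Control mice and 40.2, 53.6, 44, 42.9 and 52.8 in PZH mice. In AOM/DSS mice it was at 11.8, 27.6, 20.3, 10.9 and 17.5, and in PZH + AOM/DSS mice at 25.1, 34.1, 13.7, 12.7 and 44.6. Its AOM/DSS mice were all below its Control mice (-1.41 ± 0.31 (SE), adjusted P = 0.0080). Angptl4, an inhibitor of lipoprotein lipase and a classical PPAR target, was at 0.384, 0.569, 1.16, 1.12 and 0.375 FPKM in Control mice and 0.30, 0.202, 0.233, 0.25 and 0.287 in PZH mice. Values in AOM/DSS mice were 7.66, 0.923, 1.56, 1.37 and 2.17, and those in the PZH + AOM/DSS mice were 0.516, 0.741, 0.552, 1.49 and 0.498. AOM/DSS mouse 23 was well above the others and the difference missed the threshold (0.91 ± 0.36 (SE), adjusted P = 0.093). Pdk4, which restrains pyruvate oxidation, was at 0.929 to 2.43 FPKM in Control and 1.11 to 3.67 in AOM/DSS mice (0.41 ± 0.23 (SE), adjusted P = 0.23).

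**Figure D4:**
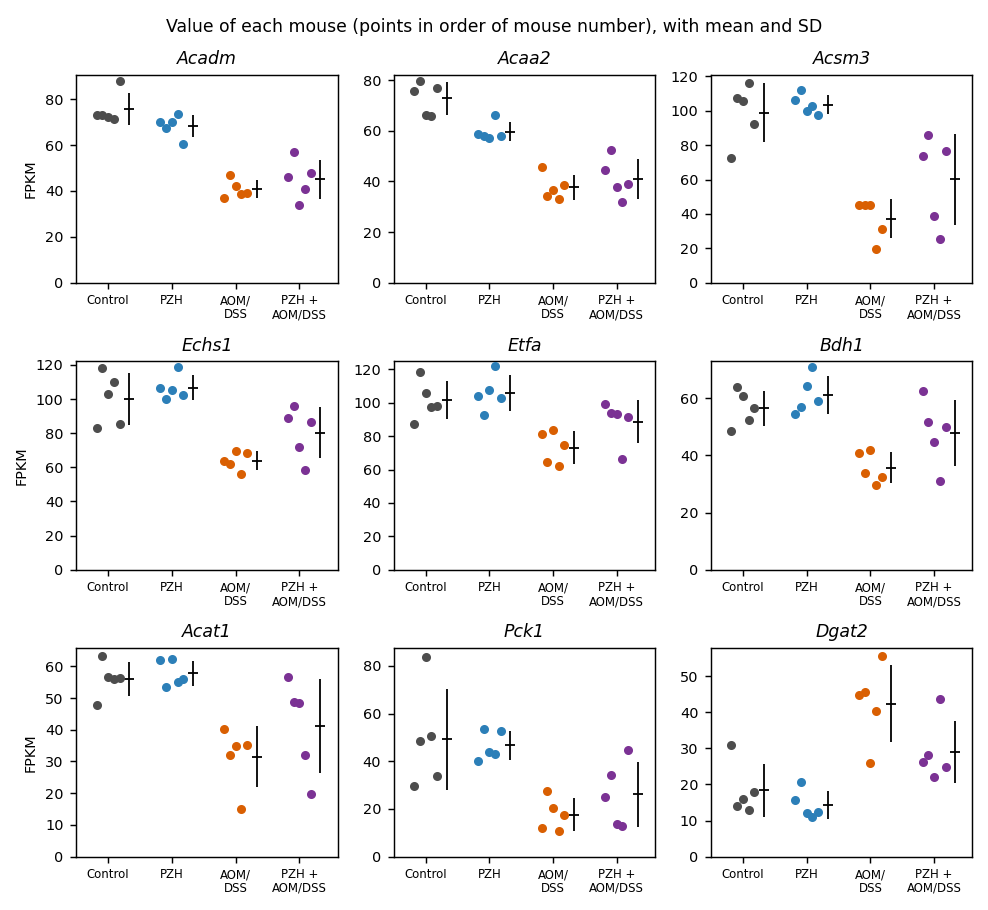
FPKM of 9 genes in each mouse (points, in order of mouse number within a group), with mean and SD beside them. For Acadm, Acaa2, Acsm3, Echs1, Etfa, Bdh1, Acat1 and Pck1 the AOM/DSS mice lie below the Control mice, for Dgat2 4 of 5 lie above them, and in most genes the 5 PZH + AOM/DSS mice spread more widely than the AOM/DSS mice.

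Other genes of the same metabolism were counted from lists outside the 43. These lists, like the 43 genes themselves, were chosen with earlier results of these data known. Among all genes tested in AOM/DSS against Control, 7.23% fell and 16.4% rose. Of 41 further fatty acid oxidation and ketogenesis genes, 39 were tested, 13 fell and 1 rose in AOM/DSS mice (median log2 difference -0.27). The largest falls were those of Slc16a1, a carrier of butyrate and other monocarboxylates (-1.27, adjusted P = 0.00034), Acss2, an acetyl-CoA synthetase (-1.10, adjusted P = 0.00016), and Eci3, a peroxisomal isomerase (-1.06, adjusted P = 0.0034), and Acsl4, a synthetase that prefers arachidonic acid, rose (0.88, adjusted P = 0.0016). Of 14 fatty acid synthesis genes all were tested, 2 fell, Acly (-0.75) and Mlxipl (-0.73), and 3 rose, led by Fasn (0.86) and Fads1 (0.83). Of 22 respiratory chain genes all were tested, 13 fell and 0 rose (median -0.42), with the largest falls in the cytochrome c oxidase genes Cox5b (-0.94), Cox4i1 (-0.74) and Cox6c (-0.68). At an unadjusted P under 0.05, 0 respiratory chain genes were higher as well.

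Markers of several cell types moved in the same comparison. Of 10 surface colonocyte markers 6 fell and 0 rose, and their summed level was 3628 to 4869 FPKM in Control and 625 to 1858 in AOM/DSS mice. All 7 smooth muscle markers fell (sum 2294 to 5279 against 1019 to 1782 FPKM), and 4 of 9 leukocyte markers rose (sum 175 to 390 against 405 to 894 FPKM). Of 4 adipocyte markers tested 3 fell, and the 8 on the list summed to 17.6 to 45.4 FPKM in Control and 8.85 to 18.7 in AOM/DSS mice, with Lep under 1 FPKM in all 20 mice and Plin1 under 1 in 18. The general epithelial list gave 3 falls and 1 rise in 9 tested, with summed levels that overlapped (4029 to 7846 against 3523 to 6537 FPKM). That sum is uneven because Epcam was listed at 0 in 13 mice and Krt8 was under 1 FPKM in 8, whereas Cdh1 was at 214 to 310 FPKM and the 8 colon identity markers summed to 917 to 3188 FPKM over all 20. The labels give colon as the tissue, while their extraction protocol names the abdominal aorta, and Cdh1 and the colon identity markers were present in every mouse. Of 8 colon identity markers 4 fell, of 7 goblet cell markers 1 rose, and of 6 fibroblast markers 1 fell and 2 rose. The hepatocyte markers Apoa2, Serpina1a and Fgb were under 1 FPKM in every mouse, Ttr fell (-1.02, adjusted P = 0.0011), and Alb, at 0.173 to 16.8 FPKM, had a log2 difference of 1.38 (adjusted P = 0.096). The part of these shifts in the fall of the fatty acid oxidation genes was not tested, and in whole colon fewer cells of a type and less RNA per cell cannot be told apart.

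**Figure D5:**
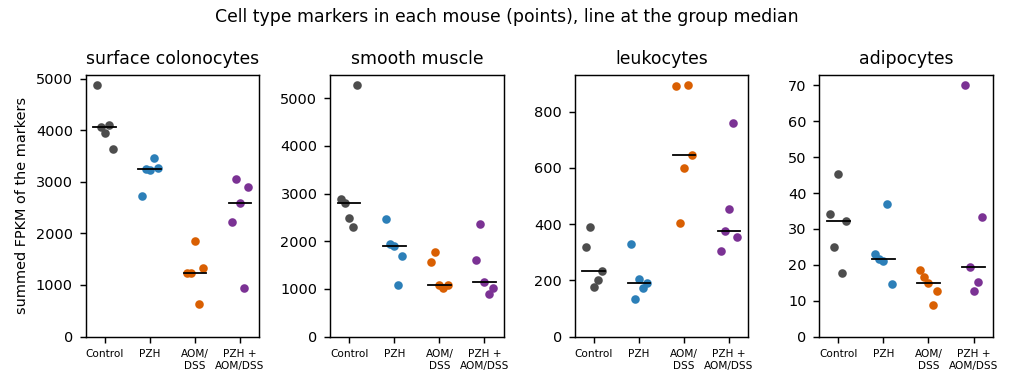
Summed FPKM of 4 marker lists in each mouse (points, in order of mouse number within a group), with a line at the group median. Surface colonocyte sums in AOM/DSS mice (625 to 1858 FPKM) lie below those of Control mice (3628 to 4869), and PZH + AOM/DSS mouse 35 has the lowest sum of its group at 949 FPKM.

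The same question was asked among PZH-treated mice, by comparing PZH + AOM/DSS with PZH, which shares no mouse with the comparison above. Acadm and Acaa2 fell and Dgat2 rose, which is 2 of 41 genes tested (all but Fabp1 and Angptl4) lower and 1 higher at an adjusted P under 0.05, against 0.678% lower and 1.74% higher among all 15636 genes tested. At an unadjusted P under 0.05, 17 genes were lower and 2 higher, against 7.89% and 13% of all genes. Among the genes tested, the groups were separate for 9 lower genes, Acsm3, Acadm, Acadvl, Hadha, Echs1, Acaa2, Decr1, Etfb and Etfdh, and for 2 higher genes, Acadl and Dgat2, against 2.37% and 5% of all genes. Angptl4, too low to be tested here, was also higher without overlap (0.498 to 1.49 against 0.202 to 0.300 FPKM). For this gene all PZH mice were also below all Control mice. The median log2 difference was -0.34 over the set and 0.04 over all genes. The 3 calls rested on small margins, with differences of -0.61 ± 0.13 (SE), adjusted P = 0.042 for Acadm, -0.55 ± 0.13 (SE), adjusted P = 0.0498 for Acaa2 and 0.97 ± 0.21 (SE), adjusted P = 0.042 for Dgat2. The count was 0 without PZH mouse 8, 27, 46 or 53 or PZH + AOM/DSS mouse 2, 15 or 35, it was 1 without PZH mouse 14, and it was 3 without either of the remaining mice, but not the same 3. Without PZH + AOM/DSS mouse 13 Dgat2 was lost and Acadvl gained, and without mouse 36 Acaa2 was lost and Pck1 gained. Where calls were lost the differences were -0.65 to -0.51 for Acadm, -0.58 to -0.46 for Acaa2 and 0.81 to 1.05 for Dgat2. Fitting all 20 mice in one model called 6, of which 5 lower. All genes gained calls in that model too, from 106 lower and 272 higher to 312 and 690. With 1 mouse left out, 12 to 122 of all genes were called lower and 42 to 310 higher.

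All 17 genes that fell in AOM/DSS against Control also had negative differences in PZH + AOM/DSS against PZH, from -0.96 to -0.22 (median -0.45, against -0.70 in the first comparison). Of the 17 genes that fell, 12 were lower at an unadjusted P under 0.05 here, which is 70.6% of either list of 17. Among all genes tested 7.89% were lower at this threshold. The same overlap for all genes that fell in AOM/DSS against Control is not given here. Both comparisons share the exposure to AOM/DSS, so the overlap is not shown to be particular to the set. The 5 genes of the first list that were not were Ppara, Cd36, Acads, Hadhb and Etfa, with log2 differences of -0.49, -0.44, -0.45, -0.22 and -0.26. The 5 genes of the second list alone were Etfb (-0.63), Eci1 (-0.41), Hadh (-0.56), Slc25a20 (-0.38) and Acot1 (-0.34). Acadl, the long-chain dehydrogenase, was at 108, 96.2, 102, 98.2 and 102 FPKM in PZH + AOM/DSS mice against 88, 81, 91.8, 89.2 and 81 in PZH mice. It was higher at the unadjusted threshold but not called (0.23 ± 0.08 (SE), unadjusted P = 0.013, adjusted P = 0.13). The share of the set that was higher at the unadjusted threshold, 4.88%, was below the 13% of all genes. Here the surface colonocyte sums were 2726 to 3464 FPKM in PZH and 949 to 3050 in PZH + AOM/DSS mice, with 0 of 10 markers called and 4 lower and 0 higher at an unadjusted P under 0.05 (median log2 difference -0.68). Leukocyte sums were 133 to 330 FPKM in PZH and 303 to 759 in PZH + AOM/DSS mice, with Cd3e called higher and 5 of 8 markers higher at an unadjusted P under 0.05. The smooth muscle sums were 1076 to 2475 against 900.0 to 2359 FPKM, with 1 of 7 markers lower at an unadjusted P under 0.05. The part of these markers in the differences was not tested.

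Whether AOM/DSS changed the genes by a different amount with and without PZH was tested by the interaction. None of 42 genes (all but Fabp1) was called (0.0118% of all 16936 genes were), and at an unadjusted P under 0.05, 0 were lower and 1 higher, against 6.92% and 3.41% of all genes. The one was Acaa2, with an interaction of 0.39 ± 0.16 (SE), unadjusted P = 0.027, where its differences were -0.94 without and -0.55 with PZH. Next were Hadhb (0.30 ± 0.14 (SE), unadjusted P = 0.056) and Acot1 (-0.49 ± 0.25 (SE), unadjusted P = 0.069). Of the 17 genes that fell, 16 had a positive interaction, from -0.04 to 0.60, and the interaction shares the Control and AOM/DSS mice by which the 17 were found, so this count was set in part by that choice. Of 10 surface colonocyte markers, 0 had a lower and 5 a higher interaction at an unadjusted P under 0.05 (median 0.87, none called). Also higher were 2 of 7 smooth muscle, 2 of 7 adipocyte, 2 of 6 fibroblast and 2 of 8 colon identity markers. The last 2 were Car1 and Slc26a3, which are on the surface list too. These lists had 0 lower, and the goblet cell, leukocyte, general epithelial and hepatocyte lists had 0 either way. The part of these markers in the values of the set was not tested.

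PZH + AOM/DSS mice were compared with AOM/DSS mice to ask which genes differ with PZH in the exposed colon. None of 42 genes (all but Fabp1) passed an adjusted P under 0.05 (limma, smallest 0.40), and 0.00629% of all 15888 genes did. At an unadjusted P under 0.05, 3 were lower, Angptl4, Dgat2 and Acot1, and 2 were higher, Acsf2 and Echs1, against 8.21% and 3.51% of all genes. Angptl4 was at 0.498 to 1.49 FPKM in PZH + AOM/DSS and 0.923 to 7.66 in AOM/DSS mice (-0.88 ± 0.36 (SE), unadjusted P = 0.034). Dgat2 was at 22.2 to 43.7 against 26 to 55.6 FPKM, with overlap (-0.53 ± 0.22 (SE), unadjusted P = 0.035). The count of 3 lower genes became 0 or 1 without AOM/DSS mouse 23 or 52 or PZH + AOM/DSS mouse 2, 13, 15 or 36. Acsf2 was at 13.7 to 25.8 against 12.2 to 17.8 FPKM (0.41 ± 0.17 (SE), unadjusted P = 0.038). The 17 genes that fell in AOM/DSS mice all had a higher mean in PZH + AOM/DSS than in AOM/DSS mice, by 0.01 to 0.60 on the log2 scale (median 0.18), but they were chosen for being low in these AOM/DSS mice, and 1 of the 17, Echs1, had an unadjusted P under 0.05. Surface colonocyte sums were 949 to 3050 FPKM in PZH + AOM/DSS and 625 to 1858 in AOM/DSS mice, with 4 of 10 markers higher and 0 lower at an unadjusted P under 0.05 (median log2 difference 0.71, none called). Leukocyte sums were 303 to 759 against 405 to 894 FPKM, with 3 of 9 markers lower and 0 higher at an unadjusted P under 0.05 and none called. Adipocyte sums were 12.6 to 70 against 8.85 to 18.7 FPKM, with 1 of 3 markers tested higher and 0 lower. Of 8 colon identity markers 3 were higher and 0 lower, of 6 fibroblast markers 1 was higher and 1 lower, and of 7 smooth muscle markers 0 were either. The part of these markers in the values of the set was not tested.

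The 5 PZH + AOM/DSS mice differed among themselves. Across the 17 genes, mouse 35 was at or below the highest AOM/DSS mouse in all 17, mouse 15 in 10, mouse 36 in 8, mouse 2 in 7 and mouse 13 in 4. The median difference from the Control mean over these genes was -0.84 in mouse 35 on the log2 scale, within the -0.89 to -0.62 of the 5 AOM/DSS mice, and -0.46 to -0.19 in the other 4. In PZH mice it was -0.09 to 0.10. Mouse 35 also had the lowest surface colonocyte sum of its group (949 FPKM, against 2223 to 3050 in the other 4) and the highest leukocyte sum (759 FPKM, against 303 to 455). Without mouse 35, none of 42 genes passed in PZH + AOM/DSS against AOM/DSS (smallest adjusted P 0.055), while 4.41% of all 15639 genes passed as lower and 0.761% as higher. Of the set, 4 were lower and 8 higher at an unadjusted P under 0.05, against 14.9% and 6.85% of all genes. The 8 were Ehhadh, Fabp2, Echs1, Acsm3, Etfa, Bdh1, Hadhb and Acsf2. Of these, Echs1, Acsm3, Etfa, Bdh1 and Hadhb belong to the 17 genes, which were chosen for being low in AOM/DSS mice. Mouse 35 was singled out for being low in the same genes, so these counts were set in part by that choice. For Bdh1 the difference was 0.54 without mouse 35 and 0.39 with it, and for Acsm3 0.87 and 0.60. Without it the interaction had 2 genes lower and 7 higher at an unadjusted P under 0.05, against 10.8% and 5.28% of all genes. None of the set was called in it, while 2.49% of all 16814 genes were called lower and 0.339% higher. The choice of mouse 35 enters these interaction counts as well.

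PZH mice were compared with Control mice to ask which genes differ with PZH alone. None of 40 genes (all but Fabp1, Acaa1b and Angptl4) passed an adjusted P under 0.05 (smallest 0.49), and 0.00645% of all 15506 genes did. Angptl4, too low to be tested, was lower without overlap (0.202 to 0.300 FPKM in PZH and 0.375 to 1.16 in Control mice). At an unadjusted P under 0.05, Acaa2, Cd36 and Pdk4 were lower and Pparg higher, 3 and 1 of 40, against 4.5% and 4.34% of all genes, so the count was near that of genes at large, and without PZH mouse 8 it was 1 lower gene. Acaa2 was at 57.3 to 66.3 FPKM in PZH and 65.7 to 79.8 in Control mice (-0.28 ± 0.09 (SE), unadjusted P = 0.0076). Pparg was at 13.1 to 21.9 FPKM in PZH and 6.38 to 16.1 in Control mice (0.55 ± 0.22 (SE), unadjusted P = 0.031). Cd36 was at 4.66 to 6.0 FPKM in PZH and 5.54 to 13 in Control mice (-0.51 ± 0.21 (SE), unadjusted P = 0.032). The median log2 difference of the set was 0.03, and 0.01 over all genes. Surface colonocyte sums were 2726 to 3464 FPKM in PZH and 3628 to 4869 in Control mice, without overlap, with 0 of 10 markers called and 3 lower and 1 higher at an unadjusted P under 0.05. Smooth muscle sums were 1076 to 2475 against 2294 to 5279 FPKM, with overlap, 0 of 7 markers called and 5 of 7 lower at an unadjusted P under 0.05. The part of both lists in the values of the set was not tested.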

How the data were processed

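RNA-seq libraries of colon from 20 mice were used, 1 per mouse, with 5 mice in each of 4 groups as the labels give them (model stands for AOM/DSS). The labels name a kit that removes ribosomal RNA and the study's methods add a poly(A) selection step, so which RNA was kept is not settled. The authors aligned the reads to mm10 with HISAT2 (v2.1.0) and estimated transcripts with StringTie (v1.3.3b). The deposited FPKM values, per transcript and normalised by the authors to transcript length and mapped fragments, covered 118434 transcripts, of which 96182 were Ensembl transcripts and 22252 were assembled ones with no gene name that entered no sum. Whole-read counts were not used here, and the depth, estimated from the steps of low values, was about 15400000 to 19500000 fragments per mouse. No exact counts could be recovered, since 36.5% to 45.1% of low values were within 0.05 of a whole fragment.

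FPKM of Ensembl transcripts were summed per gene with GENCODE M21 (GRCm38), which named 32991 genes and lacked 150 transcripts. Genes at 0.5 FPKM or more in at least 5 mice of a fit were kept, log2(FPKM + 1) was tested with limma (3.58.1, trended variance, R 4.3.3) and P values were adjusted by Benjamini-Hochberg over all genes tested, with a threshold of 0.05. Each pairwise fit used its 10 mice, and the interaction used 20. A fold change on this scale understates the change of low genes. The pipeline was tested on simulated data. Alternatives were a pseudocount of 0.1, no filter, a filter of a mean of 5 FPKM, median-of-ratios scaling, the highest transcript per gene, all mice in one model, array weights, and leaving out each mouse in turn.

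Members, pathway lists and marker lists were chosen with earlier results of these data known. Values in every mouse are given for the 3 regulators, Cpt1a, Bdh1, the tested gene with the largest difference of each role in AOM/DSS against Control, every gene called in the other tests and the 3 with the lowest P in each of the PZH comparisons and the interaction. From other lists the 3 largest falls and 2 largest rises among called genes are named. Promoter windows are RefSeq sequences of GRCm38.p6.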

Additional observations from a re-analysis of the deposited data

Results flagged for a closer look

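Within each group of 5 mice, the gap of the highest or lowest mouse to its nearest neighbour was set against the whole range of the group (Dixon's criterion, 0.71). Of 169 groups of values over the 43 genes, 22 had such a mouse, 3 low and 19 high. For independent normal values the rule flags about 1 in 20 groups, or 8.45. The values here are FPKM without a log scale and the genes share the same mice, so 8.45 is not an exact expectation. In the sentences here the value of the mouse in FPKM is followed by the range of the other 4. PZH + AOM/DSS mouse 35 stood apart in 7 genes. It was high for Acot1 (4.7 against 2.88 to 3.21), Hsd17b4 (33.8 against 27.1 to 28.7), Dgat2 (43.7 against 22.2 to 28.3), Angptl4 (1.49 against 0.498 to 0.741) and Pdk4 (3.17 against 0.65 to 1.3), and low for Hadhb (40.9 against 52.9 to 56.9) and Etfa (66.5 against 91.2 to 99.2).

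Ech1 stood apart in 3 groups, in Control mouse 50 (27.4 against 15.6 to 17.9), AOM/DSS mouse 33 (69.98 against 8.18 to 10.3) and PZH + AOM/DSS mouse 36 (104 against 4.48 to 10.7). Cpt1a was low in Control mouse 37 (18.3 against 59.8 to 72.6). PZH mouse 8 was high for Ppargc1a (14.1 against 6.61 to 7.97) and Slc25a20 (121 against 80.2 to 91.9), and PZH mouse 46 for Acaa2 (66.3 against 57.3 to 58.9), Eci1 (38.6 against 27.4 to 30.6) and Etfb (150.2 against 129 to 135). Acaa1b was high in Control mouse 17 (1.63 against 0 to 0.363) and PZH mouse 53 (1.68 against 0.0868 to 0.285). The others were Acot2 in Control mouse 41 (4.12 against 2.72 to 3.04), Acadm in Control mouse 50 (88 against 71.3 to 73.3), Dgat2 in Control mouse 17 (31 against 12.9 to 18) and Angptl4 in AOM/DSS mouse 23 (7.66 against 0.923 to 2.17).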

How the results depend on the processing

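In AOM/DSS against Control, 12 to 20 genes were called under the alternative settings and 18 to 21 when 1 mouse was left out, against 18 with all mice. Among all genes, 1143 were lower and 2596 higher with all mice. The alternative settings gave 799 to 1590 lower and 1610 to 2839 higher, and leaving out 1 mouse gave 807 to 1080 and 1709 to 2494. In PZH + AOM/DSS against PZH, where 3 were called, the count was 0 without a filter and 0 with the highest transcript per gene, 6 with all 20 mice in one model, and 0 to 3 when 1 mouse was left out. All genes went from 106 lower and 272 higher to 27 and 63 without a filter. They went to 36 and 119 with the highest transcript, and to 312 and 690 with all 20 mice. The 3 remaining comparisons had 0 genes called in every setting run. Without mouse 35 the calls among all genes went from 0 lower and 1 higher to 689 and 119 in PZH + AOM/DSS against AOM/DSS, and from 1 lower and 1 higher to 419 and 57 in the interaction. Of the genes with values in every mouse, Hadhb reversed in AOM/DSS against Control with the highest transcript per gene (0.36, adjusted P = 0.67), and the cause was not tested. In 9 combinations of gene and setting a gene passed that had not, Slc25a20 in 5 of them, and in 1 (Cd36) a call was lost. Over all members, the highest transcript per gene took the lower calls from 17 to 11, losing Cd36, Acads, Acadvl, Hadha, Hadhb and Etfdh. Over all genes it took them from 1143 to 842. No paired analysis was possible because no mouse number is shared between groups. Depth is known only as an estimate, so no counting interval is given, and genes near 1 FPKM such as Angptl4, Pdk4 and Acaa1b rest on few fragments.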
